A study of Mus musculus with 12 samples.

Results

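The genes described here are 10 genes of hepatic iron sensing and transport: Tfr2, Hfe, Bmp6, Tmprss6, Id1, Smad7, Tfrc, Slc40a1, Fth1 and Trf. They act upstream of or beside hepcidin, and each was represented by the promoter with the highest mean CPM (counts scaled to the library total) over the 12 libraries, which gave 10 of 43511 promoters in the deposited table. All 10 passed the filter on low counts, as did 41908 promoters in all, so that no gene of the group was lost to low signal. Chromatin accessibility was measured by ATAC-seq, in which the Tn5 transposase cuts open DNA and the cuts are counted by sequencing, in the livers of wild-type C57BL/6N males aged 19 to 20 weeks on standard chow. The 3 groups had 4 libraries each. The control group received distilled water, the atorvastatin group 10 mg/kg of this statin, an inhibitor of cholesterol synthesis, and the PCN group 100 mg/kg of pregnenolone 16α-carbonitrile, a ligand of the mouse pregnane X receptor. All groups were gavaged for 4 days and then fasted for 12 h, so the controls had also been fasted.

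Iron leaves hepatocytes, macrophages and enterocytes through ferroportin (Slc40a1), and hepcidin (Hamp), a hormone made by hepatocytes, blocks ferroportin. Hepatocytes set the level of hepcidin through receptors that sense iron-loaded transferrin and through BMP ligands from the sinusoidal endothelium, which signal by SMAD proteins to the nucleus. The transferrin receptor Tfrc and ferritin are controlled by iron largely after transcription, through regulatory proteins that bind their mRNAs, a step that ATAC-seq does not record.

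RefSeq windows before the transcription start were matched by symbol for 5 of the 10 genes. Of these, 3 are printed here because they represent the sensing receptor, the ligand and the uptake receptor and hold matches of searched motifs. Where a gene had more than 1 start, the most upstream was taken (Tfr2 had 3 starts, Tfrc 2 and Fth1 2). Whether that start belongs to the promoter whose counts are given below was not checked. The sequences are from RefSeq on GRCm38.p6, the build that mm10 names, read 5′ to 3′ on the plus strand, which is the strand of these genes. Capitals mark the motif matches: GGGCGG (GC box, also as its reverse complement), CACGTG (E-box), GGCGCC (core of the BMP response element) and CCAAT (a promoter element named for its letters). The window of Tfr2, printed for 232 bases because the last 18 of its 250 lie inside the annotated gene, is chr5:137569590-137569821, that of Bmp6 is chr13:38345466-38345715 and that of Tfrc is chr16:32608646-32608895.
Tfr2: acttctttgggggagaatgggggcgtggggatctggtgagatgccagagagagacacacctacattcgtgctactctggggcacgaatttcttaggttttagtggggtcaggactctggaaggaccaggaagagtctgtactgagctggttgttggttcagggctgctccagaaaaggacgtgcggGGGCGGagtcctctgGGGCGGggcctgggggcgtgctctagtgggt
Bmp6: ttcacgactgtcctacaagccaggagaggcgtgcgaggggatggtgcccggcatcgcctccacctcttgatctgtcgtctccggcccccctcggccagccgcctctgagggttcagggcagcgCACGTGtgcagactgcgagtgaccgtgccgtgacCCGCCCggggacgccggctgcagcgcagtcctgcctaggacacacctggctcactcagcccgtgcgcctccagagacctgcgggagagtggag
Tfrc: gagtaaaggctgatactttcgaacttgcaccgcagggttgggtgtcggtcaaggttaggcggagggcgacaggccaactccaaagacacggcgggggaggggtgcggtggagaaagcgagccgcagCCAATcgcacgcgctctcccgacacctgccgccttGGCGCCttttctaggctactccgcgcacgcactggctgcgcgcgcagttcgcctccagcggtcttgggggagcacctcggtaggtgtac
In the Tfr2 window the GC boxes began 64 and 49 bases before the transcript start, counted over all 250 bases. The Bmp6 window had an E-box 127 bases and a GC box 93 bases before the start, and the Tfrc window had a CCAAT box 124 bases and a GGCGCC 89 bases before it. Searched on both strands in the 250-base windows of 27018 genes, GGGCGG was found in 33% of windows, CCAAT in 34.5%, GGCGCC in 9.57% and CACGTG in 6.04%. The windows of Hfe (chr13:23710855-23711104, minus strand) and Fth1 (chr19:9980350-9980599, plus strand) were also searched. That of Fth1 held a TATAAA, a sequence present in 13% of windows, and that of Hfe held none of the motifs. None of these 5 windows held the SMAD palindrome GTCTAGAC (in 0.174% of all windows), the cyclic AMP response element TGACGTCA (1.6%), the STAT motif TTCNNNGAA (7.14%) or a direct repeat of AGGTCA with a gap of 4 bases (DR4, 0.0111%) or 1 base (DR1, 0.037%). A match describes the letters only and is not evidence of a bound factor. The G and C content was 68.8% for Bmp6, 64.8% for Tfrc and 58.4% for Tfr2, against a median of 52% over all windows, and 42% for Hfe and 34.8% for Fth1.

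The promoter tables held 1679054 to 15336000.5 counts per library, and the 10 promoters held 17 (Bmp6, control 4) to 1234 (Smad7, atorvastatin 2) counts in a library. On log2 CPM across promoters, the median correlation with the other libraries was 0.735 for control 3 and 0.759 for atorvastatin 3, whereas it was 0.925 to 0.971 for each of the remaining 10. The results are therefore also given without these 2 libraries. Hepatocyte markers were open in every library: the summed level of 8 marker promoters was 138 to 374 CPM in control, 222 to 437 CPM in atorvastatin and 285 to 399 CPM in PCN libraries, with 1 marker (Fgb) at 0 in control 3. In whole liver, fewer cells of a type and less open chromatin per cell cannot be told apart. The labels do not say whether each library came from a separate mouse, and the p values measure only the spread between libraries.

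None of the 10 promoters passed an adjusted p of 0.05 in PCN against control, atorvastatin against control or PCN against atorvastatin (edgeR quasi-likelihood test, Benjamini-Hochberg over all promoters), and 0% of the 41908 promoters passed it in any of the 3. In PCN libraries 9 of the 10 promoters lay above control by the fitted log2 fold change, with Trf (0.71 ± 0.33, SE) and Tfr2 (0.52 ± 0.23) farthest above and Bmp6 (-0.35 ± 0.31) below. In atorvastatin libraries 9 of 10 also lay above control, with Trf (0.47 ± 0.33), Id1 (0.44 ± 0.28) and Tfr2 (0.32 ± 0.23) farthest above. Both comparisons use the same 4 control libraries. The shares of all promoters above 0 were 51% and 57.3%. The median log2 fold change of the 10 was 0.21 in PCN against control, beside 0.01 over all promoters, and 0.05 in atorvastatin against control, beside 0.05. The median in atorvastatin against control depended on control 3 and atorvastatin 3, whereas that in PCN against control moved little. Without both libraries, 10 of 10 lay above 0 in atorvastatin against control with a median of 0.28. Of all promoters 47.8% did, with a median of -0.017. In PCN against control 9 of 10 lay above 0 with a median of 0.19, beside 48.3% and -0.015. At an unadjusted p under 0.05, 2 of the 10 (Tfr2 and Trf, both higher) were counted in PCN against control, where 3.75% of all promoters were counted, 1.87% as higher and 1.88% as lower. In atorvastatin against control 0 of the 10 were counted (background 1.93%, with 1.06% higher and 0.866% lower), and in PCN against atorvastatin 0 of the 10 (background 0.73%, with 0.043% higher and 0.687% lower). DESeq2 made 0 calls at the adjusted threshold among the 10 in each comparison.

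**Figure D1:**
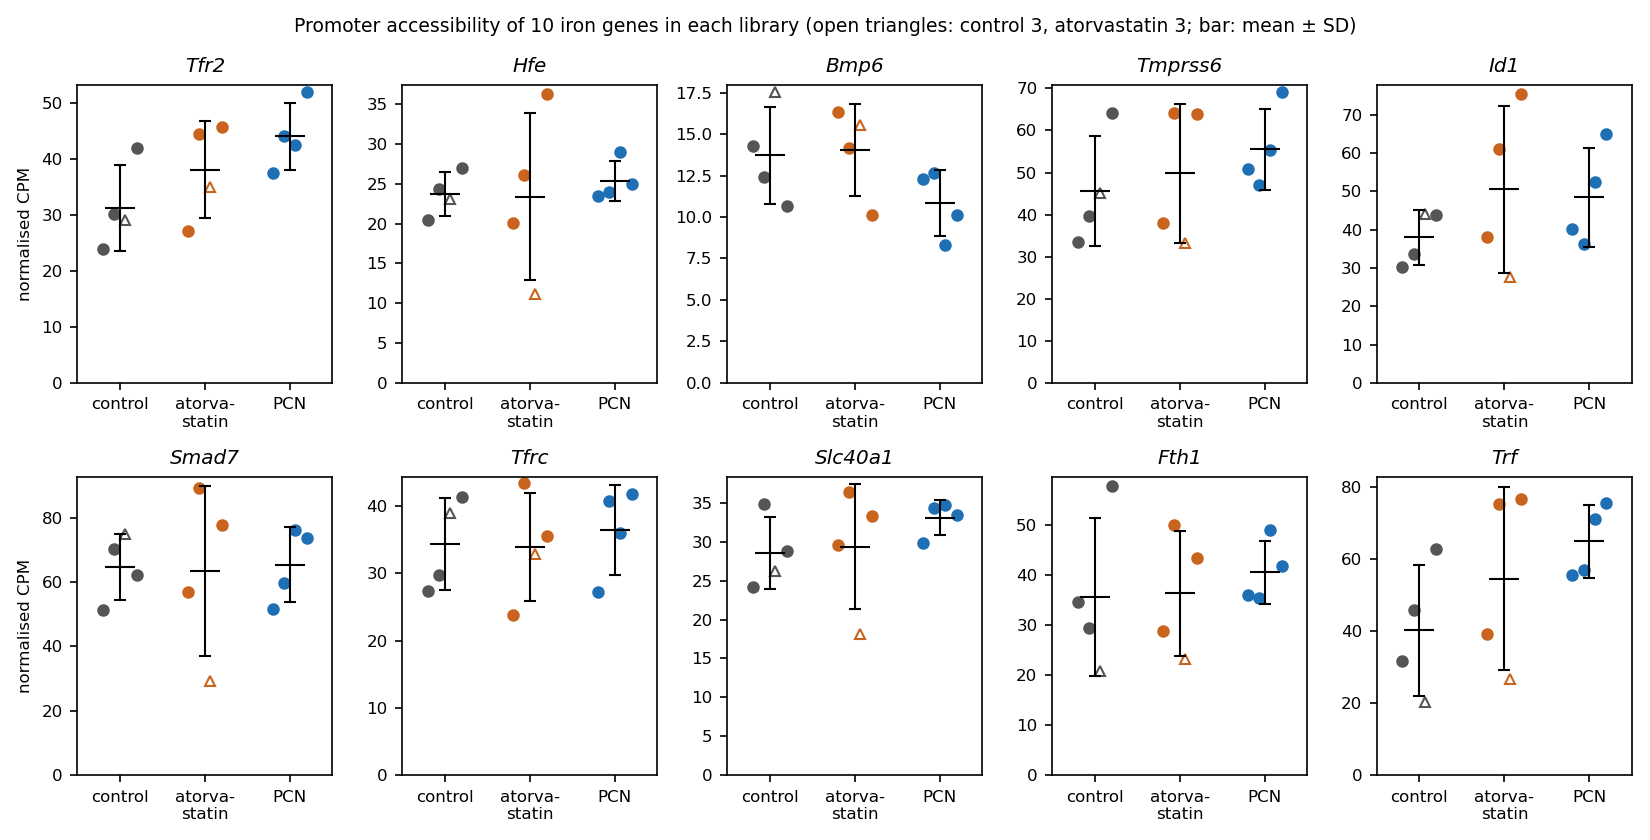
Normalised CPM of the promoters of the 10 genes (one panel each, linear axis from 0) in the 4 control, 4 atorvastatin and 4 PCN libraries. Each point is a library, open triangles are control 3 and atorvastatin 3, and bars give the mean ± SD. The PCN points of Tfr2 and Trf sit high, but in every panel the 3 groups overlap.

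Tfr2 encodes transferrin receptor 2, a hepatocyte sensor of iron-loaded transferrin. Its promoter (NM_001359206, gene at chromosome 5, 137569822 to 137588081) was at 23.9, 30.3, 29.1 and 42.1 normalised CPM in control libraries 1 to 4. It was at 27.2, 44.5, 35.0 and 45.7 CPM in atorvastatin libraries 1 to 4, and at 37.6, 44.2, 42.6 and 51.9 CPM in PCN libraries 1 to 4. Of the PCN libraries 3 lay above all control libraries, and PCN 1 lay below control 4, so the groups overlapped. The means were 31.3 ± 7.68 CPM in control, 38.1 ± 8.70 CPM in atorvastatin and 44.1 ± 5.96 CPM in PCN (SD, n = 4 libraries). The PCN difference was 1.43-fold (95% interval of the log2 fold change 0.04 to 0.99, adjusted p = 0.918, edgeR) and that of atorvastatin 1.25-fold (-0.15 to 0.79, adjusted p = 1.00). The log2 fold changes without control 3 and atorvastatin 3 were 0.52 ± 0.20 and 0.37 ± 0.21. All 5 Tfr2 promoter rows lay above control, at 0.44 to 0.52 in PCN and 0.29 to 0.32 in atorvastatin, but they hold only 3 distinct sets of counts. The gene Actl6b begins or ends 240 bp from Tfr2, and whether its open chromatin adds to these counts was not tested.

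Hfe encodes the MHC class I-like protein mutated in the most common form of hereditary hemochromatosis, which binds both transferrin receptors. Its promoter (NM_001347493, gene at chromosome 13, 23702034 to 23710854) was at 20.4, 24.4, 23.1 and 27.0 CPM in control, 20.1, 26.0, 11.1 and 36.2 CPM in atorvastatin, and 23.4, 24.0, 29.0 and 25.0 CPM in PCN libraries. The lowest and the highest value both came from the atorvastatin group, and the PCN and control libraries overlapped over most of their range. Hfe was at a log2 fold change of 0.11 ± 0.26 in PCN against control (adjusted p = 0.961) and 0.00 ± 0.26 in atorvastatin against control (adjusted p = 1.00). The atorvastatin value without control 3 and atorvastatin 3 was 0.26 ± 0.19, still not past the threshold (adjusted p = 0.911).

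Bmp6 encodes the BMP ligand that rises with liver iron and is made mainly by sinusoidal endothelial cells. Its promoter (NM_007556, gene at chromosome 13, 38345716 to 38500314) was at 14.3, 12.4, 17.5 and 10.7 CPM in control, 16.4, 14.2, 15.5 and 10.1 CPM in atorvastatin, and 12.3, 12.6, 8.31 and 10.1 CPM in PCN libraries. The PCN libraries lay low: all 4 were below the control mean of 13.7 ± 2.93 CPM, though only PCN 3 and PCN 4 were below every control library. Bmp6 was at a log2 fold change of -0.35 ± 0.31 in PCN against control (95% interval -0.98 to 0.28, adjusted p = 0.918) and 0.02 ± 0.30 in atorvastatin against control (adjusted p = 1.00). It was the only one of the 10 below 0 in PCN against control, and it remained below 0 without the 2 libraries that stood apart (-0.24 ± 0.27). The summed promoters of 11 endothelial markers were at 108 to 158 CPM in control, 103 to 196 CPM in atorvastatin and 101 to 132 CPM in PCN libraries, with Tek at 0 in control 3. The part of the endothelial level in the Bmp6 value was not tested. The genes Txndc5 and 4930579J19Rik overlap Bmp6.

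Tmprss6 encodes matriptase-2, a hepatocyte protease that lowers hepcidin by acting on the BMP co-receptor hemojuvelin. Its promoter (NM_027902, gene at chromosome 15, 78439667 to 78468648) was at 33.6, 39.7, 45.0 and 64.0 CPM in control, 38.0, 64.2, 33.3 and 64.0 CPM in atorvastatin, and 50.8, 47.0, 55.4 and 69.1 CPM in PCN libraries. All PCN libraries were above the control mean of 45.6 ± 13.2 CPM, but only PCN 4 was above control 4. The log2 fold change was 0.31 ± 0.26 in PCN against control (adjusted p = 0.918) and 0.16 ± 0.26 in atorvastatin against control (adjusted p = 1.00). Kctd17 lies 364 bp from Tmprss6.

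Id1 and Smad7 are targets of BMP-SMAD signalling in hepatocytes. Id1 encodes an inhibitor of basic helix-loop-helix factors, and Smad7 an inhibitory SMAD that dampens the pathway. The Id1 promoter (NM_010495, gene at chromosome 2, 152736251 to 152737410) was at 30.3, 33.5, 44.2 and 43.9 CPM in control, 38.0, 61.1, 27.6 and 75.6 CPM in atorvastatin, and 40.3, 36.2, 52.5 and 65.0 CPM in PCN libraries. Atorvastatin 2 and 4 lay above every control library and atorvastatin 3 below every one. The log2 fold change was 0.44 ± 0.28 in atorvastatin against control (adjusted p = 1.00) and 0.37 ± 0.28 in PCN against control (adjusted p = 0.918). Without control 3 and atorvastatin 3 these were 0.74 ± 0.24 (95% interval 0.28 to 1.21, adjusted p = 0.911) and 0.47 ± 0.23 (adjusted p = 0.905). With the replicate number as a block in those 10 libraries, Id1 in atorvastatin against control was at 0.67 with an adjusted p of 0.0235 (edgeR). This was the only call of a promoter of the 10 in any setting tried. In that fit 57 of 41915 promoters were called in all. The setting was chosen after the data were seen, and PCN 3 is then the only library of its number. The labels do not say whether the numbers pair the libraries, and their correlations were mixed.

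The Smad7 promoter (NM_001042660, gene at chromosome 18, 75367365 to 75395935) was at 51.2, 70.2, 74.9 and 62.2 CPM in control, 57.0, 89.3, 29.2 and 77.7 CPM in atorvastatin, and 51.7, 59.8, 76.2 and 73.7 CPM in PCN libraries. The lowest and highest libraries were again both of the atorvastatin group. The log2 fold change was 0.02 ± 0.29 in PCN against control (adjusted p = 0.997) and -0.03 ± 0.29 in atorvastatin against control (adjusted p = 1.00), and without the 2 libraries 0.10 ± 0.25 and 0.29 ± 0.27. The 95% interval of the PCN difference with all libraries, -0.58 to 0.61, leaves room for a change in either direction.

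Tfrc encodes transferrin receptor 1, which takes up iron-loaded transferrin. Its promoter (NM_001357298, gene at chromosome 16, 32608896 to 32632794) was at 27.4, 29.8, 39.0 and 41.4 CPM in control, 23.9, 43.4, 32.9 and 35.6 CPM in atorvastatin, and 27.2, 40.8, 36.1 and 41.8 CPM in PCN libraries. The groups covered nearly the same range, and PCN 1 lay below every control library. In log2 fold change Tfrc was at 0.10 ± 0.23 in PCN against control (adjusted p = 0.959) and 0.01 ± 0.23 in atorvastatin against control (adjusted p = 1.00).

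Slc40a1 encodes ferroportin, the iron exporter that hepcidin blocks, and is prominent in Kupffer cells. Its promoter (NM_016917, gene at chromosome 1, 45908070 to 45926532) was at 24.1, 34.9, 26.3 and 28.9 CPM in control, 29.6, 36.5, 18.1 and 33.4 CPM in atorvastatin, and 29.8, 34.3, 34.7 and 33.5 CPM in PCN libraries. The PCN libraries were all above the control mean of 28.6 ± 4.67 CPM and all below control 2. The log2 fold change was 0.21 ± 0.22 in PCN against control (adjusted p = 0.919) and 0.04 ± 0.22 in atorvastatin against control (adjusted p = 1.00). The summed promoters of 9 Kupffer cell and macrophage markers were at 34.5 to 109 CPM in control, 37.5 to 106 CPM in atorvastatin and 40.1 to 68.5 CPM in PCN libraries, with Vsig4 at 0 in control 3. Their part in the Slc40a1 value was not tested.

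Fth1 encodes the heavy chain of ferritin, the iron store of the cell. Its promoter (NM_010239, gene at chromosome 19, 9980600 to 9985111) was at 34.6, 29.5, 20.7 and 57.8 CPM in control, 28.7, 50.001, 23.2 and 43.4 CPM in atorvastatin, and 36.1, 35.4, 49.0 and 41.8 CPM in PCN libraries. Control 4 was the highest and control 3 the lowest of all 12, and no treated library lay outside the control range. In log2 fold change Fth1 was at 0.21 ± 0.28 in PCN against control (adjusted p = 0.929) and 0.06 ± 0.28 in atorvastatin against control (adjusted p = 1.00). A second Fth1 row (NR_073181, mean 27.5 CPM) was at 0.29 ± 0.30 and 0.22 ± 0.30. Best1 lies 61 bp beyond the end of Fth1, and no other gene overlaps the 250 bases before the Fth1 gene. How reads between Fth1 and Best1 were counted could not be checked.

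Trf encodes transferrin, the plasma iron carrier, a major secreted product of hepatocytes. Its promoter (NM_133977, gene at chromosome 9, 103208876 to 103230286) was at 31.8, 45.9, 20.3 and 62.8 CPM in control, 39.3, 75.4, 26.8 and 76.9 CPM in atorvastatin, and 55.8, 57.1, 71.3 and 75.7 CPM in PCN libraries. All PCN libraries were above control 1, 2 and 3, but only PCN 3 and PCN 4 were above control 4. The means were 40.2 ± 18.3 CPM in control, 54.6 ± 25.4 CPM in atorvastatin and 65.0 ± 10.1 CPM in PCN (SD, n = 4 libraries). The PCN difference was 1.64-fold (95% interval of the log2 fold change 0.04 to 1.38, adjusted p = 0.918) and that of atorvastatin 1.38-fold (-0.21 to 1.14, adjusted p = 1.00). Fitted without control 3 and atorvastatin 3, the log2 fold changes were 0.52 ± 0.25 and 0.50 ± 0.26. In single omissions, the PCN value was lowest, at 0.50, without control 3 and highest, at 0.97, without control 4.

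**Figure D2:**
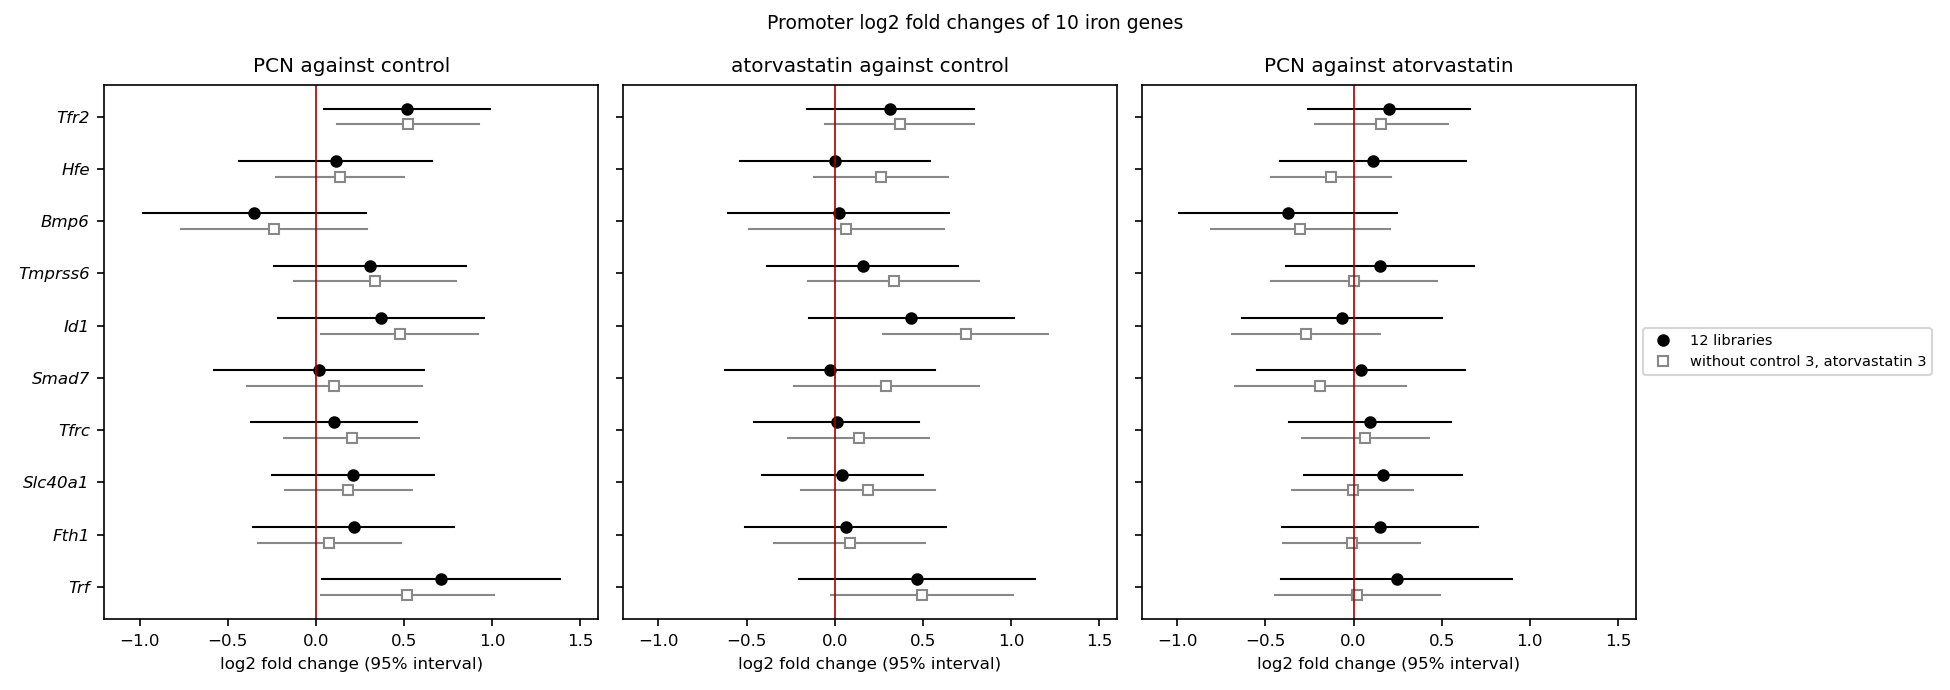
Log2 fold changes of the 10 promoters with 95% intervals in PCN against control, atorvastatin against control and PCN against atorvastatin, from all 12 libraries (filled circles) and without control 3 and atorvastatin 3 (open squares). Intervals cross 0 for all genes but Tfr2 and Trf in PCN against control with 12 libraries; without the 2 libraries that of Id1 also lies above 0 against control in both treatments, and none of these passed the adjusted threshold.

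PCN and atorvastatin libraries were compared directly as well. The promoters of 8 of 10 genes lay higher in PCN than in atorvastatin, where 47.9% of all promoters did, with a median log2 fold change of 0.13 beside -0.02. The values ran from -0.37 ± 0.30 for Bmp6 to 0.24 ± 0.32 for Trf, and adjusted p was 1.00 for all 10. Without control 3 and atorvastatin 3 only 4 of the 10 lay above 0 and their median was -0.01. This comparison therefore rested on atorvastatin 3 for its direction: leaving out that library alone also gave 4 of 10. Of the genes not given singly above, Tmprss6, Tfrc, Slc40a1 and Fth1 were without the 2 libraries at 0.33, 0.20, 0.18 and 0.075 in PCN against control and at 0.33, 0.14, 0.19 and 0.086 in atorvastatin against control. In each of the 3 comparisons, 0 of the 10 promoters had groups that did not overlap. Over all promoters 2.1% were higher and 1.51% lower without overlap in PCN against control, 0.511% and 0.434% in atorvastatin against control, and 0.289% and 0.215% in PCN against atorvastatin.

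The counts of promoters above 0 moved with the scaling. With library totals in place of TMM factors (trimmed mean of M values), 6 of 10 lay above 0 in PCN against control and 4 of 10 in atorvastatin against control. The median in PCN against control moved from 0.21 to 0.10 for the 10 and from 0.01 to -0.10 over all promoters, so both moved down. With loess offsets the counts were 7 and 5, and the medians in PCN against control were 0.06 for the 10 and -0.01 over all promoters. Tfr2, Tmprss6, Id1 and Trf lay above 0 against control in both treatments under each of these scalings, and Bmp6 below 0 in PCN against control. Hfe, Smad7, Tfrc, Slc40a1 and Fth1 had values near 0 whose sign turned with the scaling in 1 or both treatments, as did that of Bmp6 in atorvastatin against control with library totals (-0.019).

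The spread within groups differed between the 10 genes. The SD of log2 CPM within groups was 0.29 for Slc40a1 and Bmp6, 0.30 for Tfr2, 0.31 for Tfrc, 0.39 for Tmprss6, 0.43 for Hfe, 0.46 for Smad7 and Id1, 0.48 for Fth1 and 0.60 for Trf. The median over all promoters tested was 0.49, and 0.35 over promoters in the same range of mean level. The largest difference, that of Trf, was thus measured on the promoter with the widest spread of the 10.

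Across the 12 libraries, 9 of the 10 promoters varied together and Bmp6 varied against them. Over the 45 pairs of the 10, the median Pearson r of log2 CPM was 0.64, with Tmprss6 and Id1 highest at 0.89 and Bmp6 and Trf lowest at -0.79, and Bmp6 was negative with each of the other 9. Over pairs drawn from every 10th gene symbol by mean level, the median r was 0.02. These pairs cover promoters of all levels and were not computed for the 10 libraries. Whether other promoters of like level vary together as much was not tested. In the 10 libraries without control 3 and atorvastatin 3 the median over the 45 pairs was 0.66. These points share libraries, depth and signal quality, so the values are a description and carry no test.

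**Figure D3:**
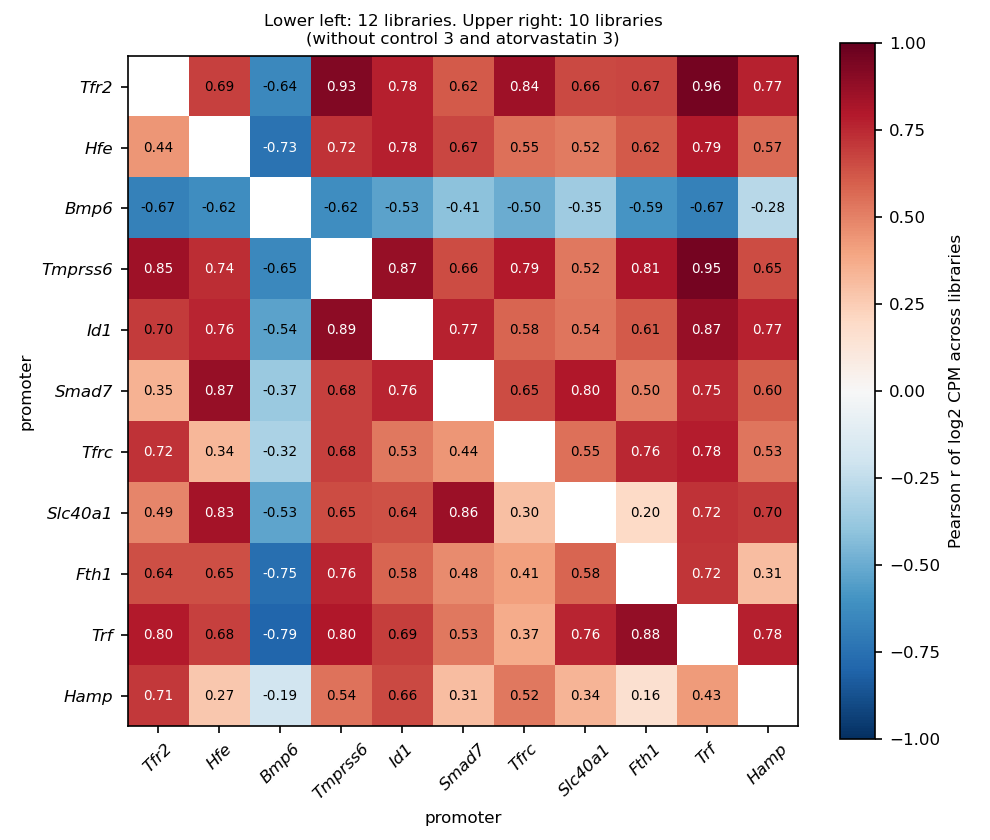
Pearson r of log2 CPM between the promoters of the 10 genes and Hamp, over 12 libraries (lower left) and over the 10 libraries without control 3 and atorvastatin 3 (upper right). Red cells are positive and blue cells negative; the row and column of Bmp6 are blue throughout, and the pair of Bmp6 and Trf is at -0.79 over 12 libraries.

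The same 9 promoters followed general properties of the libraries. The 1000 promoters with the highest mean CPM over the 12 libraries were taken as 1 fixed set. The fraction of each library found in this set, a measure of signal over background, was 7.81% to 11.0% in control, 6.92% to 10.7% in atorvastatin and 8.67% to 12.7% in PCN libraries. Over 12 libraries this top-1000 share correlated with the 9 promoters at r = 0.55 (Tfrc) to 0.82 (Tmprss6) and with Bmp6 at -0.76. The endothelial marker sum correlated with the 9 at -0.89 (Hfe) to -0.55 (Tfrc) and with Bmp6 at 0.76, and the Kupffer cell and macrophage sum at -0.88 (Fth1) to -0.51 (Tfrc) and 0.59. The hepatocyte marker sum correlated at 0.11 (Smad7) to 0.79 (Trf) with the 9 and at -0.59 with Bmp6, and the log2 total count at -0.19 (Bmp6) to 0.33 (Trf) with the 10. Without control 3 and atorvastatin 3 the hepatocyte sum correlated with the 9 at 0.57 (Fth1) to 0.86 (Tfrc) and with Bmp6 at -0.45. The endothelial sum was then at -0.93 (Trf) to -0.70 (Fth1) and 0.76, and the Kupffer cell and macrophage sum at -0.90 (Tfrc) to -0.36 (Hfe) and 0.31. The top-1000 share was at 0.59 (Slc40a1) to 0.81 (Trf) and -0.81. These are shared-library values without a test, and no background over all promoters was computed for them. The median log2 fold change in PCN against control was 0.35 for 8 hepatocyte, -0.20 for 11 endothelial, -0.30 for 9 Kupffer cell and macrophage and -0.33 for 8 stellate cell markers. In atorvastatin against control these medians were, in the same order, 0.39, 0.04, -0.21 and -0.05. In both comparisons 0 of these lists' promoters were called, and the medians were not computed without control 3 and atorvastatin 3. The part of these cell types in the differences of the 10 genes was not tested. With this top-1000 share added to the fit as a covariate, a setting chosen after the data were seen, 5 of 10 lay above 0 in PCN against control, 8 of 10 in atorvastatin against control and 3 of 10 in PCN against atorvastatin. Tfr2 was then at 0.40 ± 0.19 and Trf at 0.44 ± 0.24 in PCN against control, whereas Id1 was at 0.08 ± 0.20 and Smad7 at -0.26 ± 0.19.

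**Figure D4:**
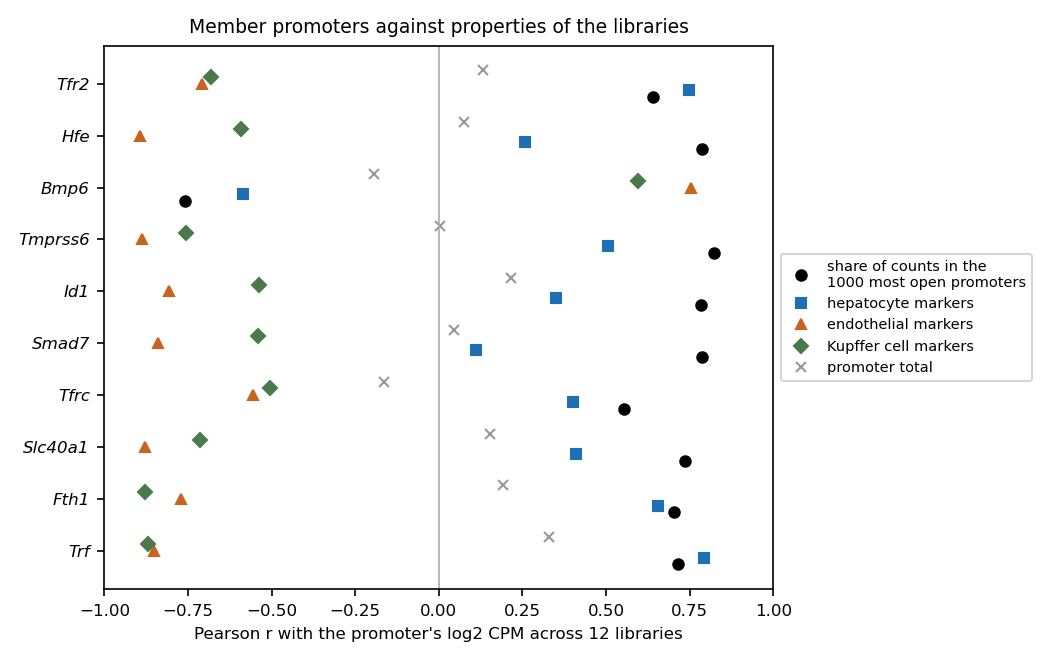
Pearson r over 12 libraries between each promoter's log2 CPM and the top-1000 share, the summed hepatocyte, endothelial and Kupffer cell markers, and the log2 promoter total. Black circles lie right of 0 and orange triangles left of 0 for 9 genes, and the sides are exchanged for Bmp6 (-0.76 and 0.76).

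Hepcidin itself was open at 29.2 ± 13.1 CPM in control, 64.5 ± 26.6 CPM in atorvastatin and 58.2 ± 10.4 CPM in PCN libraries at the Hamp promoter (SD, n = 4 libraries), with log2 fold changes of 1.17 ± 0.31 in atorvastatin (adjusted p = 1.00) and 1.01 ± 0.31 in PCN (adjusted p = 0.918). Without control 3 and atorvastatin 3, Hamp passed the threshold in both (1.64 ± 0.26, adjusted p = 5.46e-05, and 1.37 ± 0.25, adjusted p = 0.00177), with 4 and 6 promoters called in all, whereas 0 of the 10 iron genes did. Across the 12 libraries the correlation of the 10 promoters with Hamp ran from -0.19 (Bmp6) to 0.71 (Tfr2), with a median of 0.38. Without control 3 and atorvastatin 3 it ran from -0.28 (Bmp6) to 0.78 (Trf), with a median of 0.63. Hamp itself correlated with the top-1000 share at r = 0.33 over 12 libraries and at 0.44 without these 2.

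By the rule for likeness, each of the 10 was set beside the gene symbol of the other 24602 whose promoter had the highest Pearson r of log2 CPM over the 12 libraries. The pairs were Trf with Grb7 (0.99), Fth1 with Nt5c3 (0.97), Tfr2 with Echs1 (0.97), Hfe with Prcp (0.96), Slc40a1 with Upp2 (0.96), Tmprss6 with Cbs (0.96), Tfrc with Inpp5e (0.95), Id1 with Mir7238 (0.95) and Bmp6 with Crhr2 (0.94). Smad7 was most like Gm20544 (0.997), a long noncoding RNA gene that lies 277 bp from it, so that the same open region may be counted in both. Over the 10 libraries without control 3 and atorvastatin 3 these r values were 0.86 (Slc40a1) to 0.995 (Smad7). Spearman correlations of the same pairs over 12 libraries were 0.76 (Slc40a1) to 0.99 (Trf). Each pair was picked as the highest r of 24602 over 12 libraries, so high values follow from the selection.

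Of 50 other genes of iron handling and BMP-SMAD signalling, 49 were tested and 0 were called in each comparison (background 0%). In PCN against control 36 of 49 (73.5%) lay above 0 with a median log2 fold change of 0.15, in atorvastatin against control 35 of 49 (71.4%) with a median of 0.07, and in PCN against atorvastatin 29 of 49 (59.2%) with a median of 0.04. In the fit without control 3 and atorvastatin 3 these were 34 (69.4%, median 0.11), 39 (79.6%, median 0.12) and 17 (34.7%, median -0.062) of 49, so that the direction between the treatments turned. The smallest p values on the higher side belonged in both treatments to Id3, a BMP target and relative of Id1, and Neo1, which encodes neogenin, a partner of hemojuvelin. Id3 was at 0.75 ± 0.32 in PCN and 0.71 ± 0.31 in atorvastatin, and Neo1 at 0.50 ± 0.23 and 0.51 ± 0.23, none past the threshold. On the lower side were Bmp2 (-0.35 ± 0.25), an endothelial BMP ligand like Bmp6, and Smad4 (-0.32 ± 0.26), the common partner SMAD, in PCN, and Smad4 (-0.44 ± 0.26) and Spint2 (-0.24 ± 0.27), a serine protease inhibitor, in atorvastatin. In PCN against atorvastatin the named genes were the mitochondrial iron importer Slc25a28 (0.38 ± 0.29), Spint2 (0.33 ± 0.27), the ferrireductase Cybrd1 (-0.89 ± 0.69) and the BMP receptor Bmpr1b (-0.74 ± 0.60). Without control 3 and atorvastatin 3, Id3 was at 0.48 ± 0.24 and 0.54 ± 0.25 against control and Neo1 at 0.37 ± 0.20 and 0.46 ± 0.21.

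A second readout at the same loci came from the deposited enhancer regions. Of 406518 regions 659 lay within 50 kb of the body of one of the 10 genes, and 438 of them passed the filter. Regions overlap each other, so that the 659 form 236 loci. In each of the 3 comparisons 0 of the 438 passed the adjusted threshold, as did 0% of 182115 enhancers tested. At an unadjusted p under 0.05, 6 of the 438 were counted in PCN against control (background 1.93%), 17 in atorvastatin against control (background 2.39%) and 4 in PCN against atorvastatin (background 0.465%). In PCN against control 66.7% of the 438 lay above 0, beside 62% of all enhancers, with medians of 0.26 and 0.17. In atorvastatin against control the shares were 58.2% and 58.4%, and in PCN against atorvastatin 57.1% and 55.4%. Without control 3 and atorvastatin 3, where 451 regions near the 10 genes were tested, the shares near these genes and over all enhancers were 65% and 51.3% in PCN against control (medians 0.16 and 0.016), 64.1% and 50.9% in atorvastatin against control (0.19 and 0.011) and 44.3% and 50.5% in PCN against atorvastatin (-0.051 and 0.0045). The share in atorvastatin against control thus lay above that of all enhancers without these libraries but not with them, and the direction between the treatments turned. The shares near the 10 genes moved with the scaling, to 56.4%, 47.0% and 53.4% with library totals and to 40.0%, 44.5% and 45.0% with loess offsets. The shares over all enhancers were not computed for these scalings.

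Single genes differed in how their surrounding regions lay. Around Tfr2 all 12 tested regions were above 0 in both treatments, with medians of 0.39 in PCN and 0.41 in atorvastatin, but they form only 2 loci. Around Trf 47 of 64 regions in PCN (median 0.46) and 46 of 64 in atorvastatin (median 0.35) lay above 0, and these form 14 loci. Without control 3 and atorvastatin 3 the Trf counts were 42 of 65 (median 0.28) and 40 of 65 (median 0.26). Around Bmp6 22 of 62 lay above 0 in atorvastatin (median -0.24) and 30 of 62 in PCN (median -0.01). The Bmp6 counts without control 3 and atorvastatin 3 were 19 of 63 (median -0.20) and 25 of 63 (median -0.18), so the medians against control lay closer together. In PCN against atorvastatin 39 of 62 Bmp6 regions lay above 0 (median 0.27), and 41 of 63 (median 0.20) without these libraries. Around Slc40a1 37 of 43 lay above 0 in PCN against control (median 0.34) and 13 of 43 in atorvastatin against control (median -0.21). Without the same libraries these were 33 of 47 (median 0.40) and 25 of 47 (median 0.027), so the lower position in atorvastatin was not kept. Between PCN and atorvastatin 41 of the 43 Slc40a1 regions, in 9 loci, lay higher in PCN (median 0.59), and 45 of 47 (median 0.37) did so without control 3 and atorvastatin 3. With library totals the Slc40a1 counts were 32 of 43 in PCN against control, 12 of 43 in atorvastatin against control and 40 of 43 between the treatments. With loess offsets they were 21 (median -0.053), 14 and 38 of 43, so the direction in PCN against control turned with the loess scaling. The Tfr2 regions lay above 0 in 10 of 12 in PCN and 12 of 12 in atorvastatin with loess offsets. None of these regions was called.

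**Figure D5:**
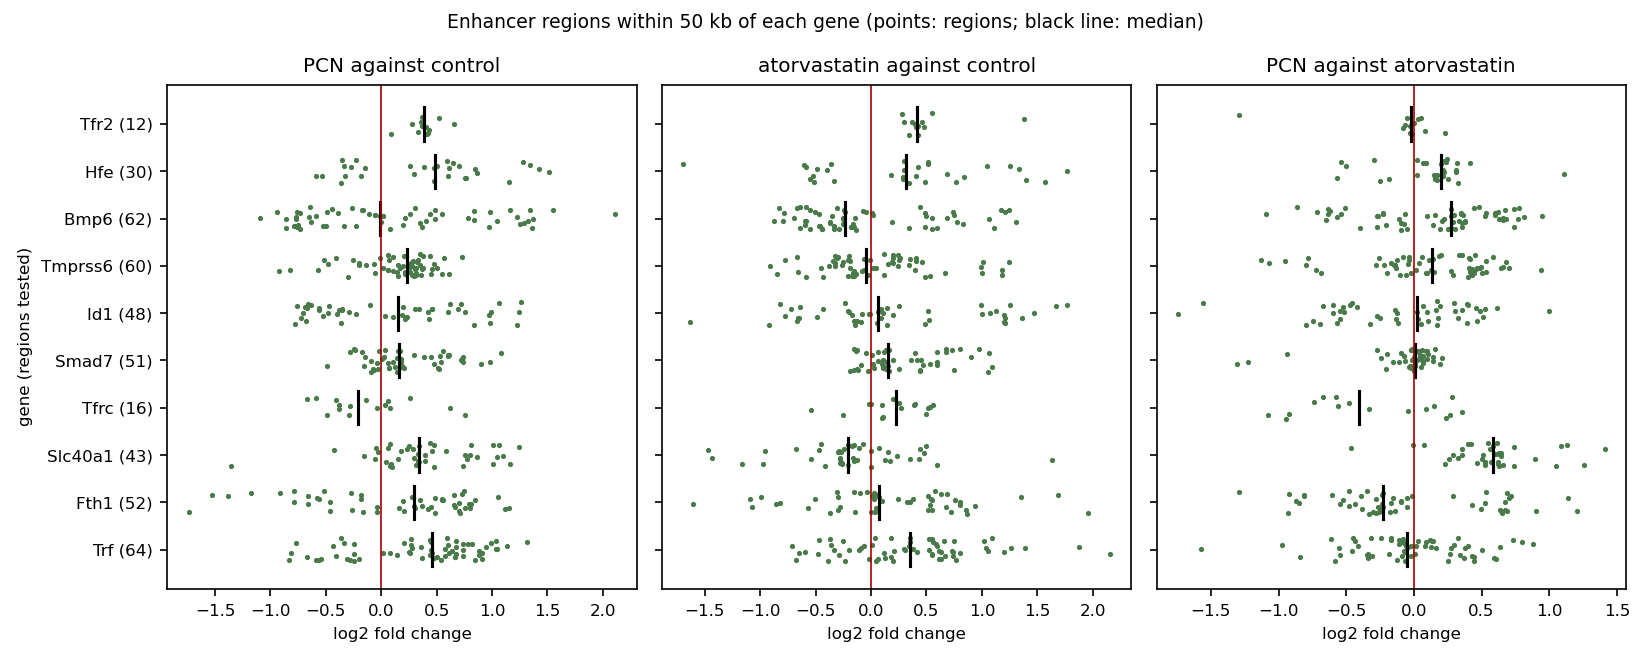
Log2 fold changes of the tested enhancer regions within 50 kb of each gene (points, with their number in brackets) in the 3 comparisons. Black lines are medians; all Tfr2 points lie right of 0 against control in both treatments, and 41 of 43 Slc40a1 points lie right of 0 in PCN against atorvastatin.

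By the naming rule, the 2 regions of smallest p are given for each comparison, with coordinates on mm10 as deposited. A region 25237 bp from Bmp6 (chr13:38320415-38320543) was at 1.12, 1.61, 0 and 0.740 CPM in control and 2.94, 3.01, 6.52 and 6.46 CPM in PCN libraries. These were 11.5 to 38.5 counts in PCN and 0 to 6.5 in control libraries, which differ in depth (log2 fold change 2.11 ± 0.76, adjusted p = 1.00). All control counts lay below the filter's minimum of 10, so the region was tested only through treated libraries. It was picked for its small p, and the share of all enhancers whose groups do not overlap was not counted. This region lay in the opposite direction to the Bmp6 promoter. A region 8138 bp from Fth1 (chr19:9993196-9993302) was at 3.74, 2.69, 7.65 and 4.44 CPM in control and 1.10, 2.51, 1.89 and 1.23 CPM in PCN libraries (-1.74 ± 0.69, adjusted p = 1.00). The Fth1 region held 6 to 22 counts in control and 4.5 to 11 in PCN libraries. It passed the filter mainly through the controls, where it was high, and was also picked for its small p. In atorvastatin against control both regions were near Id1. The nearer, 1961 bp away (chr2:152739280-152739462), was at 5.99, 6.18, 0 and 2.96 CPM in control and 5.80, 12.1, 11.2 and 13.5 CPM in atorvastatin libraries. Here atorvastatin 1 overlapped the controls and the other atorvastatin libraries lay above them (1.47 ± 0.58, adjusted p = 1.00, and 0.80 ± 0.35 without control 3 and atorvastatin 3). The farther, 41369 bp away (chr2:152694841-152694923), was at 1.87, 1.61, 0 and 1.48 CPM in control and 2.90, 4.41, 2.96 and 7.88 CPM in atorvastatin libraries. Its log2 fold change was 1.77 ± 0.71, and 1.43 ± 0.49 without the 2 libraries. The control counts were 10, 6, 0 and 2, none above the filter's minimum of 10, so this region too was tested only through treated libraries. It was also picked for its small p. In PCN against atorvastatin a region 48182 bp from Id1 (chr2:152785501-152785683, -1.74 ± 0.77) and a region 24734 bp from Smad7 (chr18:75342540-75342722, -1.23 ± 0.54) were named. Atorvastatin 3 was the highest library in both, at 11.6 and 10.1 CPM, and the values were -0.57 ± 0.43 and -0.47 ± 0.36 without it and control 3.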

How the data were processed

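ATAC-seq libraries of mouse liver (4 each of control, atorvastatin and PCN) were analysed from tables of expected counts that the authors deposited, unnormalised and in steps of 0.5, for 43511 promoters named by RefSeq transcript and 406518 enhancer regions. The submitters' processing notes list HOMER 4.10, bedtools 2.30.0, STAR 2.7.9a and Trimmomatic, and mm10 as the genome build, without roles. How reads were shifted and counted, how a promoter or enhancer was defined and how wide the promoter window is were not given in the sources used here, so levels are not compared between genes. A pravastatin group is not analysed here.

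Counts were rounded to whole numbers, filtered with filterByExpr (minimum count 10, minimum total 15) scaled by TMM and tested with the quasi-likelihood method of edgeR 4.0.16 (R 4.3.3), with group as factor over all 12 libraries. P values were adjusted by Benjamini-Hochberg over 41908 promoters or 182115 enhancers, with a threshold of 0.05. SEs were derived from edgeR's fold change and F statistic and are approximate. A prior count of 2 was added for log2 CPM. The fit was tested on simulated data. Enhancer regions were assigned by a distance of 50 kb to the RefSeq gene body instead of the promoter centre, since the promoter table has no coordinates. Their coordinates are as deposited, with the counting base not stated.

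Named were the 10 genes (1 promoter per symbol, highest mean CPM), the 2 other iron or BMP-SMAD genes of smallest p per direction and comparison, the 2 enhancer regions of smallest p per comparison, and the symbol most like each gene. The genes and lists were chosen with earlier results of these data known. Alternatives were other scalings, no filter, DESeq2 1.42.0, limma-voom (limma 3.58.1), a replicate block, fits of 2 groups, 1 promoter per gene, a distance of 10 kb and leaving out libraries. Chosen after seeing the data were the block without control 3 and atorvastatin 3 and each library's top-1000 promoter share as a covariate, with and without these libraries. Tables were read with the R package data.table, version 1.17.8.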

Additional observations from a re-analysis of the deposited data

How the results depend on the processing

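Of 630 values of single promoters of the 10 genes under the alternatives, 528 kept their direction and their side of the threshold, 101 turned sign and 1 crossed the threshold. Tfr2 kept its sign in every setting run, and so did Trf and Bmp6 in PCN against control; the sign changes concern promoters whose value with 12 libraries was smaller than its SE. The counts of promoters past the threshold were 0 in each comparison. Without control 3 and atorvastatin 3 they became 6 in PCN against control and 4 in atorvastatin against control. In the DESeq2 test 1 was counted in atorvastatin against control. In the other 10 libraries they became, in the same order, 124 and 57 with the replicate block and 1 and 2 with the covariate. The covariate is each library's share of counts in the 1000 promoters with the highest mean CPM over the 12 libraries. Of the 10 genes, 1 promoter (Id1 in atorvastatin against control, 0.67) was called, in the block fit of 10 libraries. The cause was not tested. With single libraries left out, 0 promoters and 0 enhancer regions near the 10 genes were called.

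Replicate numbers were not taken as pairs because the labels do not say whether they pair the libraries. Of 12 same-numbered pairs, 6 correlated over 0.1. The correlations were 0.365 to 0.501 for replicate 1, 0.227 to 0.433 for replicate 4, -0.094 to 0.095 for replicate 2 and -0.416 to 0.065 for replicate 3, and 5 of 12 libraries correlated best with their own number. With the replicate block on 12 libraries, 0 promoters and 0 enhancer regions were called in each comparison.

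Without control 3 and atorvastatin 3 the sign turned for Smad7 (0.29) in atorvastatin against control and for Hfe (-0.13), Smad7 (-0.19), Slc40a1 (-0.0052), Fth1 (-0.010) in PCN against atorvastatin. With DESeq2 size factors the sign turned for Smad7 (-0.0096) in PCN against control and for Hfe (-0.019), Tfrc (-0.00083) in atorvastatin against control. With library totals the sign turned for Hfe (-0.0059), Smad7 (-0.11), Tfrc (-0.012) in PCN against control and for Hfe (-0.089), Bmp6 (-0.019), Tfrc (-0.043), Slc40a1 (-0.035), Fth1 (-0.0053) in atorvastatin against control. With loess offsets the sign turned for Smad7 (-0.25), Tfrc (-0.072) in PCN against control, for Hfe (-0.087), Tfrc (-0.051), Slc40a1 (-0.050), Fth1 (-0.020) in atorvastatin against control and for Smad7 (-0.076), Tfrc (-0.021) in PCN against atorvastatin. In the DESeq2 test the sign turned for Smad7 (-0.010) in PCN against control and for Hfe (-0.027), Tfrc (-0.0012) in atorvastatin against control. With limma-voom the sign turned for Smad7 (-0.020) in PCN against control, for Hfe (-0.096), Bmp6 (-0.046), Slc40a1 (-0.047) in atorvastatin against control and for Id1 (0.075) in PCN against atorvastatin. With the replicate block the sign turned for Hfe (-0.073), Tfrc (-0.024) in atorvastatin against control. With only the 2 groups compared in the fit the sign turned for Hfe (-0.0051) in atorvastatin against control. With 1 promoter per gene the sign turned for Smad7 (0.0048) in atorvastatin against control. With the replicate block in the other 10 libraries the sign turned for Fth1 (-0.017) in PCN against control, for Smad7 (0.27) in atorvastatin against control and for Hfe (-0.16), Smad7 (-0.26), Slc40a1 (-0.014), Fth1 (-0.11) in PCN against atorvastatin. With the covariate the sign turned for Hfe (-0.12), Smad7 (-0.26), Tfrc (-0.0022), Fth1 (-0.0029) in PCN against control, for Hfe (-0.074) in atorvastatin against control and for Hfe (-0.048), Tmprss6 (-0.036), Smad7 (-0.16), Tfrc (-0.028), Fth1 (-0.040) in PCN against atorvastatin. With the covariate in the other 10 libraries the sign turned for Hfe (-0.040), Smad7 (-0.10), Fth1 (-0.13) in PCN against control, for Smad7 (0.16), Fth1 (-0.049) in atorvastatin against control and for Hfe (-0.17), Tmprss6 (-0.061), Smad7 (-0.27), Slc40a1 (-0.034), Fth1 (-0.081), Trf (-0.052) in PCN against atorvastatin. When single libraries were left out, the values that turned sign ranged in PCN against control Smad7 -0.078 to 0.12, in atorvastatin against control Hfe -0.29 to 0.24, Bmp6 -0.063 to 0.15, Tmprss6 -0.0033 to 0.35, Smad7 -0.25 to 0.22, Tfrc -0.14 to 0.14, Slc40a1 -0.089 to 0.22, Fth1 -0.14 to 0.35, and in PCN against atorvastatin Hfe -0.12 to 0.41, Id1 -0.27 to 0.19, Smad7 -0.19 to 0.25, Tfrc -0.037 to 0.22, Slc40a1 -0.0012 to 0.28, Fth1 -0.0061 to 0.33. The causes of these turns were not tested.

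At 17 to 1234 counts per promoter and library, with SE of 0.22 to 0.33 on the log2 scale, differences of the size seen here were not detectable past the adjusted threshold, which does not show that they are absent. The 3 groups overlap at each of the 10 promoters, libraries may not be separate mice, and the differences move with scaling. Enhancer regions overlap and are not independent.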
